A study of Mus musculus with 12 samples.

Results

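The comparison described here set Ba/F3 cells with ETV6 I209S P214L against Ba/F3 cells with ZsGreen alone, 3 libraries in each group, 6 of the 12 libraries of the series. They were chosen by their labels and not by any measured value. Ba/F3 is a mouse pro-B cell line that normally needs interleukin-3 (IL-3) to live and divide. Cells of both groups carried NRAS G12D, an active form of a RAS protein, so the control cells had it too. The control cells expressed the fluorescent protein ZsGreen (genotype ZsGreen control), and the others expressed ETV6 with both substitutions from a construct that also encodes ZsGreen behind an internal ribosome entry site (ETV6 I209S P214L-IRES-ZsGreen). IL-3 was withdrawn at the sort on day 0, the medium was renewed on day 2, and RNA was taken on day 3, in all groups. The remaining groups, wild-type ETV6 (ETV6 WT) and ETV6 P214L, had the same NRAS G12D background and treatment and were used for tests of a difference. Separate cultures are not named in the labels, so p-values measure only the spread between these libraries, which may be technical.

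ETV6 belongs to the ETS family of transcription factors, which bind DNA at a GGAA core, and it acts as a repressor in the nucleus. It is needed for blood formation, and inherited mutations of it cause low platelet counts and a raised risk of leukaemia. By the study's title the inherited mutation gives ETV6 a signal for export from the nucleus. Active RAS signals through the MEK and ERK kinases, and IL-3 signals through its beta receptor chains to JAK2 and STAT5, and either route can keep blood cells growing. The comparison asks which transcripts differ when ETV6 with I209S beside P214L is present in cells kept without IL-3.

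Total counts were 17876563, 15156449 and 16866473 in the ZsGreen libraries and 18268492, 14301683 and 16080807 in the I209S P214L libraries. Levels are CPM, a gene's counts scaled to a common library total. The share of counts from 18S ribosomal RNA was 3.85 ± 0.987% with ZsGreen and 3.31 ± 1.74% with I209S P214L (SD, n = 3 each, two-sided exact permutation p = 0.7). Mitochondrially encoded RNA took 1.32 ± 0.0227% and 1.20 ± 0.114% (exact permutation p = 0.1, the smallest that 3 against 3 libraries can give). Between 15706 and 17481 genes had a count in a ZsGreen library, and between 17510 and 20652 in an I209S P214L library. These ranges did not overlap, and the part of this difference in the results was not tested. On the second principal component ZsGreen 1 lay at 70.7, I209S P214L 1 at 21.2 and the other libraries of both groups below 0, so the fits were repeated without the first libraries.

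The label of a pro-B cell was checked against 29 marker genes, of which 8 had enough counts to be tested. Ptprc, the CD45 phosphatase, the kinase Btk and the factor Tcf3 were well expressed, at 331, 139 and 134 CPM in ZsGreen cells. Cd79b, a chain of the B-cell receptor, averaged 9.33 and 6.93 CPM with ZsGreen and I209S P214L, its partner Cd79a 1.48 and 1.07 CPM, and the B-cell protein Cd72 5.70 and 10.65 CPM. Other B-lineage genes were at or near 0. Igll1, Rag1, Rag2, Dntt, Il7r and Blnk had no count in the 6 libraries, and Pax5 and Ebf1 had 0 counts with ZsGreen and 1 and 3 with I209S P214L. Markers of other blood lineages were present, as given below, so the cells are called here by the name of the line. Etv6 itself stood at 87.4, 77.9 and 79.8 CPM with ZsGreen and 112, 88.6 and 96.5 CPM with I209S P214L. The groups did not overlap, and the difference was small (log2 fold change 0.28 ± 0.09 SE, edgeR adjusted p = 0.0217). It was not called without ZsGreen 2 (adjusted p = 0.0856), ZsGreen 3 (0.0713) or I209S P214L 1 (0.129). Reads of the construct and of the cells' own gene cannot be told apart in these counts. Nras stood at 73.2, 81.9 and 78.7 CPM against 80.9, 68.8 and 82.2 CPM, with overlapping groups.

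Of 14794 genes tested, 6139 differed between I209S P214L and ZsGreen cells (41.5% of those tested, edgeR quasi-likelihood test, Benjamini-Hochberg adjusted p under 0.05). Of these, 3081 were higher (20.8%) and 3058 lower (20.7%), and 1485 (10.0%) differed at least 2-fold. The changes of at least 2-fold were 961 rises (6.5%) and 524 falls (3.54%). The libraries of the groups did not overlap for 7069 genes (47.8%). The median log2 fold change of all tested genes was 0.03. The share called depended on level, at 26.1% of genes from 1 to 10 CPM, 51.6% from 10 to 100 CPM and 65.9% at higher levels. Among 11312 protein-coding genes, 2684 rose and 2852 fell. Among 1746 long noncoding RNAs, 272 rose and 95 fell, with a median of 0.36. Genes at low levels leaned the same way. Under 1 CPM 181 rose and 59 fell (median 0.29), and from 1 to 10 CPM 559 rose and 352 fell (median 0.17). The part of level in the rise of long noncoding RNAs was not tested. In the authors' deposited table, 2655 genes were higher and 2620 lower at an adjusted p under 0.05, and 5125 genes were called there and here with the same sign.

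**Figure D1:**
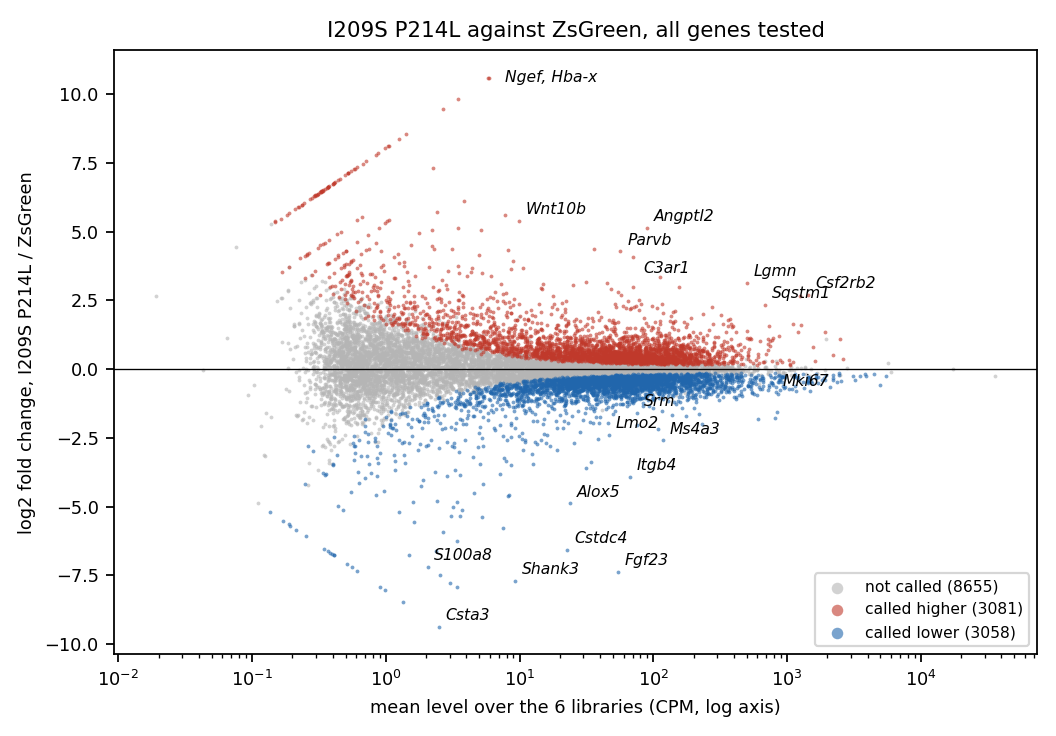
Log2 fold change of I209S P214L over ZsGreen for each of the 14794 tested genes (vertical axis) against its mean level over the 6 libraries in CPM (horizontal axis, log scale). Red points are the 3081 genes called higher, blue points the 3058 called lower and grey points the genes not called, and the diagonal lines of points at low levels are genes with no count in a group, whose fitted value is no measured fold.

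The promoters of 4 genes on which the results turn are shown because ETS factors bind at GGAA. They are Ngef and Angptl2, which rose, and Fgf23 and Mcm7, which fell. Each sequence is the 250 bases before the transcription start on the gene's strand, from RefSeq on GRCm38.p6, with every GGAA core, or TTCC for a core on the other strand, in capitals. Ngef, a guanine nucleotide exchange factor, lies on the minus strand (chr1:87573871-87574120).
Ngef: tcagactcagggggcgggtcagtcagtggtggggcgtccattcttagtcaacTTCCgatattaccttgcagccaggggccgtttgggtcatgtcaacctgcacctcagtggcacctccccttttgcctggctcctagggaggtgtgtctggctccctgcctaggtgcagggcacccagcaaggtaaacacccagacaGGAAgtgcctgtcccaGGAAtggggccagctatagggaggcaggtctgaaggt
Angptl2, a secreted angiopoietin-like protein, lies on the plus strand (chr2:33215711-33215960).
Angptl2: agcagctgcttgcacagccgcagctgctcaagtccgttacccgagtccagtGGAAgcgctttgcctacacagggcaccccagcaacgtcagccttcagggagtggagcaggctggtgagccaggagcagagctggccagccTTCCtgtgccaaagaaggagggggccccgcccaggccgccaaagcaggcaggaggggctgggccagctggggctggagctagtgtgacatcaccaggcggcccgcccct
Fgf23, a hormone of phosphate balance, lies on the plus strand (chr6:127072652-127072901).
Fgf23: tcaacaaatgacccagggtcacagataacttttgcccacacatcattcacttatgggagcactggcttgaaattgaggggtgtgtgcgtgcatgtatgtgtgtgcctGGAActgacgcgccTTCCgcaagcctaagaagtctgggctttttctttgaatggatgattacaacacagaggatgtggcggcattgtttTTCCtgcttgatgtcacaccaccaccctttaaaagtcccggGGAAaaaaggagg
Mcm7, a subunit of the replicative helicase with 2 promoters in the table, lies on the minus strand. Promoters holding CGGAAGT, the longer ETS motif described below, were put first in the choice of the one printed. This promoter is chr5:138171267-138171516.
Mcm7: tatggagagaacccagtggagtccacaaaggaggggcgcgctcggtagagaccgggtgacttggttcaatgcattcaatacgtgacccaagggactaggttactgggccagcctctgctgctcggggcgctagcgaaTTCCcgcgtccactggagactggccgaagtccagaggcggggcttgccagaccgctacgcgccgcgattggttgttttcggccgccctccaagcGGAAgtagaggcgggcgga
Cores of 4 bases are common. They were present in 96.0% of the 32851 promoter windows of 300 bases (250 before and 50 after the start), with a median of 3. The longer ETS motif CGGAAGT, which holds the core GGAA, was searched on both strands in the same windows. It was at -200 in the Ngef promoter, read on the other strand, at -20 and -4 in this Mcm7 promoter (the last runs past the printed bases) and was not in the windows of Angptl2 and Fgf23.

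CGGAAGT was in a promoter of 16.2% of the 9076 tested protein-coding genes with a promoter in the table, where any promoter counted. Counted per promoter, of tested genes or not, it was in 6.42% of all 32851, a share of another unit. It was in 13.5% of the genes called higher and 17.4% of those called lower. Among genes changed at least 2-fold the share was 7.25% of 524 that rose and 7.46% of 335 that fell. A match describes the letters and not a bound site.

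Among the largest rises was that of Angptl2, at 5.14, 4.6 and 5.17 CPM in the ZsGreen libraries and 165, 175 and 187 CPM in the I209S P214L libraries. The groups stood far apart, with a 35.4-fold difference of means (log2 fold change 5.14 ± 0.13 SE, adjusted p = 1.19e-14). Wnt10b, a WNT ligand, stood at 0.226, 0.533 and 0.601 CPM against 19.3, 18 and 20.3 CPM (5.40 ± 0.33, adjusted p = 7.23e-10). Ngef (ENSMUSG00000026259, on mm39 chromosome 1 from 87404556 to 87501592 in the deposited table) had no count with ZsGreen and 11.6, 11.0 and 12.6 CPM with I209S P214L, at least 193-fold higher against a floor of 3 counts over the group. Embryonic alpha globin Hba-x likewise had no count with ZsGreen, and stood at 14.8, 8.58 and 11.7 CPM, at least 196-fold higher. Both genes were near 0 in every control library and near 10 CPM in every library with the construct.

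Slc37a2, a sugar-phosphate transporter, went from 3.78, 2.13 and 4.03 CPM to 64.2, 79.8 and 61.4 CPM, and Aqp3, a channel for water and glycerol, rose by 4.34 on the log2 scale. Parvb, an adaptor that links integrins to actin, went from 3.56, 5.46 and 7.70 CPM to 103, 111 and 111 CPM. C3ar1, the receptor for complement C3a, went from 5.70, 8.53 and 9.68 CPM to 135, 128 and 136 CPM. No overlap between the groups was a condition for choosing the 15 largest rises, so it is no separate result for these genes. Ahnak2, a large scaffold protein, rose 10.1-fold (3.34 ± 0.08 SE, adjusted p = 1.57e-15), the smallest SE among the 15 largest rises. The rest of these 15 were the adult beta globin Hbb-bs (5.61), the mast cell chymase Mcpt4 (5.06), the mucin Muc6 (3.66), Tmem171 (3.62), the glutathione transferase Gstm1 (3.39) and the inhibitory receptor Lilrb4a (3.14).

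The deepest falls took genes from clear expression to almost nothing. Fgf23 stood at 114, 111 and 99.6 CPM in the ZsGreen libraries and at 0.591, 0.0697 and 1.23 CPM in the I209S P214L libraries, 172-fold lower (-7.37 ± 0.25 SE, adjusted p = 5.66e-13). Shank3, a scaffold known from synapses, stood at 23.1, 11.1 and 21.2 CPM against 0.161, 0 and 0.0614 CPM (-7.71 ± 0.59, adjusted p = 1.01e-08). Alox5, the lipoxygenase that starts leukotriene synthesis, stood at 49.8, 41.2 and 47.9 CPM against 1.72, 1.67 and 1.29 CPM (-4.88 ± 0.20, adjusted p = 3.23e-12). In each case the lowest control library lay far above the highest library with the construct, and groups without overlap were a condition of choice. In bulk RNA, fewer cells that express a gene and less RNA of it per cell cannot be told apart.

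The integrin subunit Itgb4 stood at 123, 127 and 127 CPM against 9.35, 7.04 and 8.22 CPM, 15.3-fold lower. Myct1, a nuclear target of MYC, fell from 55.8, 53.2 and 64.6 CPM to 5.21, 3.49 and 5.59 CPM, 12.2-fold. The groups of both genes were compact, and their lack of overlap was a condition of choice. The rest of the 15 largest falls were the stefins Cstdc4 (-6.57), Cstdc5 (-5.77) and Csta2 (-5.36), the interferon-induced Ifitm6 (-4.62), Rufy4 (-4.59), the chondroitin enzyme Csgalnact1 (-4.20), the glycan enzyme B4galnt4 (-3.82), Wdr66 (-3.47), the interleukin-18 receptor chain Il18rap (-3.45) and the peptidoglycan amidase Pglyrp2 (-3.44).

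**Figure D2:**
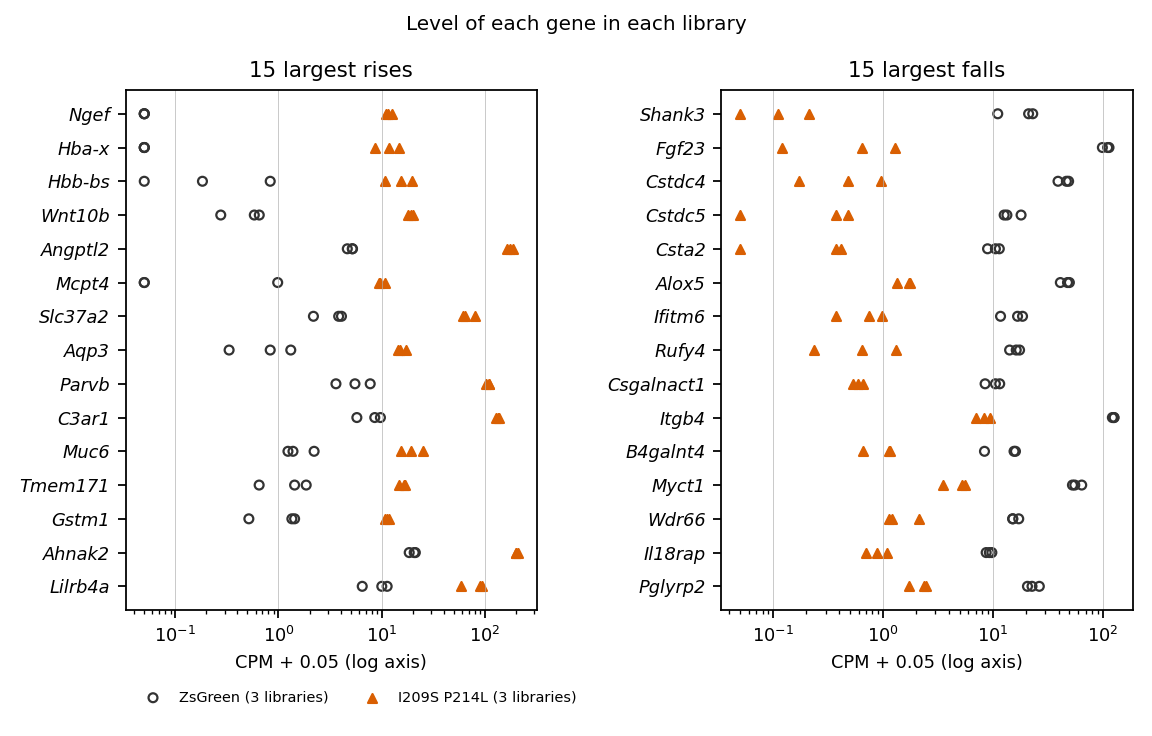
Level of the 15 genes with the largest rises (left) and the 15 with the largest falls (right) in each library, as CPM plus 0.05 on a log axis, with open circles for the 3 ZsGreen libraries and triangles for the 3 I209S P214L libraries. The circles and triangles do not overlap for any of the 30 genes because this was a condition of their choice. Points at the left edge of a panel are libraries with no count.

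A few genes had no more than 3 counts in 1 group and at least 1 CPM in the other. With no count in the 3 ZsGreen libraries were also the embryonic beta globin Hbb-y (at least 112-fold higher with I209S P214L), the glutathione transferase Gsta2 (at least 88.2-fold), the epoxide hydrolase Ephx2 (at least 45.4-fold), the red cell anion exchanger Slc4a1 and the glycosyltransferase A4galt (both at least 34.1-fold). The glutamate transporter Slc17a8 had 1 count with ZsGreen and 218 with I209S P214L, a ratio of 218 (95% counting interval 38.8 to 8668). In the other direction, the stefin Csta3 (at least 82.8-fold lower) and the serpin Serpina3g (at least 43.9-fold lower) had no count with I209S P214L. The collagenase Mmp8 had 1 count with I209S P214L, a ratio of 248 (44.2 to 9854), and S100a8, a calprotectin subunit, also had 1, a ratio of 199 (35.2 to 7883). Lipocalin Lcn2 had 2 counts, a ratio of 120 (32.8 to 995). Bounds and intervals are for counting error alone, as no molecular identifiers were used.

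Genes of cell division fell together. In the list of DNA replication genes 31 of 36 tested members fell and none rose (86.1% called), with a median log2 fold change of -0.69. Of all tested genes 20.8% were called higher and 20.7% lower, with a median of 0.03. These shares, with the 51.6% called from 10 to 100 CPM and 65.9% at higher levels, are the background of every list below. Mcm7 stood at 306, 320 and 293 CPM with ZsGreen and 184, 170 and 157 CPM with I209S P214L (-0.85, adjusted p = 4.98e-08). Tyms, which makes thymidylate, stood at 105, 121 and 123 CPM against 53.8, 58.1 and 57.5 CPM (-1.04). The primase Prim1, the clamp loader subunit Rfc5 and the origin factor Mcm10 changed by -1.03, -0.98 and -1.04. Every control library of these genes lay above every library with the construct. Unless said otherwise, members of this and later lists were named by smallest adjusted p, which favours separate groups. Such separation is therefore no further result, and groups were apart for 47.8% of all tested genes. Among those not called were Gins3, Gins4, Rfc2 and Rrm2, chosen for mention after their values were seen, and Rrm2, the small subunit of ribonucleotide reductase, stood at 109 CPM in both groups.

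In the list of mitosis genes 32 of 34 fell and none rose (94.1% called, median -0.73), beside 20.7% of all tested genes called lower. Ube2c, which carries ubiquitin for the anaphase-promoting complex, stood at 242, 218 and 204 CPM against 99.7, 87.7 and 102 CPM (-1.20, adjusted p = 1.60e-09). The spindle motor Kif11 stood at 274, 289 and 264 CPM against 136, 129 and 140 CPM (-1.03), and the condensin subunit Ncapg changed by -1.24. The kinetochore protein Nuf2 changed by -1.20 and Top2a by -0.75. The groups were apart for all 5, which their choice by adjusted p favours. Kif23 (118 and 126 CPM) and Pttg1 (30.9 and 26.4 CPM) were not called.

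Cyclins and their kinases followed, with 20 of 29 lower and 5 higher (86.2% called, median -0.48). Cdk1, the mitotic kinase, stood at 122, 114 and 109 CPM against 60.1, 58.6 and 64.0 CPM (-0.92), and cyclins Ccna2 and Ccnb1 changed by -0.78 and -0.92. The 5 that rose, named after their values were seen, were the inhibitors Cdkn2a (1.67 to 10.3 CPM), Cdkn2b (5.78 to 14.1 CPM) and Cdkn1b (57.5 to 91.5 CPM), the pocket protein Rb1 (97.5 to 150 CPM) and the kinase Cdk6 (230 to 299 CPM). Other inhibitors, named in the same way, fell, with Cdkn2c at -0.30 and Cdkn2d at -0.40, and so did the pocket protein Rbl1 (-0.48). The p53-dependent inhibitor Cdkn1a stood at 192 and 197 CPM and was not called.

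Genes of MYC and ribosome biogenesis had 34 of 44 lower and 5 higher (88.6% called, median -0.55). Myc stood at 182, 187 and 193 CPM with ZsGreen and 116, 103 and 100 CPM with I209S P214L (-0.82 ± 0.09 SE, adjusted p = 6.61e-07). Mxd1, which competes with MYC for its partner MAX, stood at 25.5, 29.4 and 28.6 CPM against 74.3, 69.5 and 72.1 CPM (1.37 ± 0.09, adjusted p = 1.39e-09). The groups were apart for both genes, in opposite directions. Odc1 and Srm, successive enzymes of polyamine synthesis, changed by -1.13 and -1.59. Nop56 and Nolc1, which work on ribosomal RNA in the nucleolus, changed by -1.02 and -1.01. The other members that rose, named after their values were seen, were the MAX-network factors Mxi1 (0.41), Mnt (0.48) and Mxd4 (0.27) and the polymerase subunit Polr1a (0.27). Mycn, of the same family as Myc and named in the same way, stood at 193 and 177 CPM (-0.12) and was not called.

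Nuclear transport genes had 31 of 41 lower and 1 higher (78.0% called, median -0.46). Xpo1, the exporter that recognises leucine-rich export signals, stood at 252, 251 and 260 CPM against 156, 163 and 157 CPM (-0.68 ± 0.06 SE, adjusted p = 8.05e-08). The importins Kpnb1 and Kpna2 changed by -0.71 and -0.90, and the pore proteins Nup210 and Nup50 by -1.16 and -0.73. No library of one group reached the other for these genes. The member that rose, named after its values were seen, was the import receptor Tnpo2 (140 to 177 CPM).

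Metabolic genes of growth were lower as well. Of 36 genes of cholesterol and fatty acid synthesis 22 fell and 4 rose (72.2% called, median -0.55). Idi1 of the sterol pathway stood at 37.3, 32.2 and 34.3 CPM against 9.02, 6.83 and 7.37 CPM (-2.15 ± 0.14 SE, adjusted p = 1.34e-09). Those that rose were Abca1, which exports cholesterol (28.3, 18.4 and 25.9 CPM against 117, 99.3 and 114 CPM, 2.18), and, named after their values were seen, the exporter Abcg1 (1.56), the sterol sensor Nr1h2 (0.72) and the sterol reductase Tm7sf2 (1.01). Both exporters thus rose, in the direction opposite to Idi1.

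Of 24 genes of the amino acid response 12 fell and 6 rose (median -0.31). The serine pathway enzymes Phgdh and Psat1 fell, Psat1 from 300, 294 and 289 CPM to 113, 112 and 104 CPM (-1.43), and the folate enzyme Mthfd2 and asparagine synthetase Asns changed by -1.52 and -1.32. The cystine importer Slc7a11 rose from 44.2, 55.1 and 54.9 CPM to 174, 166 and 177 CPM (1.74). Of 35 nuclear-encoded respiratory chain genes 24 fell and none rose (68.6% called, median -0.34). Among them were the ATP synthase subunit Atp5g1 (-0.76) and the oxidase subunit Cox6c (-0.73). Of 14 mitochondrially encoded RNAs only mt-Nd1 (-0.42), mt-Cytb (-0.33) and mt-Nd2 (-0.31) were called, all lower. Without ZsGreen 1 (edgeR adjusted p = 0.0633), I209S P214L 1 (0.0996) or the first libraries (0.0559) mt-Nd2 was not called.

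Glycolysis and hypoxia genes went both ways, with 7 of 31 higher and 11 lower (58.1% called, median -0.24). Of all tested genes 41.5% were called, and 51.6% of those from 10 to 100 CPM. The glucose transporter Slc2a3 rose from 182, 180 and 188 CPM to 530, 557 and 543 CPM (1.57), and the oxidoreductase Ero1a and Ndrg1 rose by 1.68 and 1.04 on the log2 scale. The enzyme Pgk1 fell from 710, 711 and 701 CPM to 417, 390 and 381 CPM (-0.84), and the lactate transporter Slc16a1 changed by -1.09. Within each of these genes the libraries of a group lay close together.

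Genes of lysosomes and autophagy rose, with 29 of 39 higher and 2 lower (79.5% called, median 0.60). Lgmn, a lysosomal protease, stood at 107, 96.3 and 103 CPM with ZsGreen and at 939, 869 and 881 CPM with I209S P214L, 8.77-fold higher (3.13 ± 0.07 SE, adjusted p = 1.57e-15). Sqstm1, the autophagy receptor p62, stood at 242, 236 and 205 CPM against 1242, 1070.4 and 1124 CPM (2.33 ± 0.08, adjusted p = 6.12e-13). Neither gene had overlapping groups. The alpha-galactosidase Gla changed by 1.88 and Fnip2, a partner of folliculin, by 1.84. Mitf, of the MiT/TFE family that drives lysosome genes, rose from 4.8, 6.8 and 9.02 CPM to 40.0, 38.6 and 34.8 CPM (2.46). The 2 members that fell, named after their values were seen, were Cd68 (12.5 to 7.80 CPM) and the glucuronidase Gusb (149 to 118 CPM).

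Antioxidant genes of the NRF2 pathway had 16 of 34 higher and 3 lower (55.9% called, median 0.36). Of all tested genes 20.8% were called higher and 20.7% lower. The share called in either direction was 51.6% from 10 to 100 CPM and 65.9% at higher levels, so that of this list is near the background. Hmox1, which breaks down heme, stood at 40.1, 28.8 and 30.4 CPM against 169, 153 and 167 CPM (2.30 ± 0.10 SE, adjusted p = 7.43e-12). Gpx4, which reduces lipid peroxides, stood at 182, 153 and 152 CPM against 573, 546 and 576 CPM (1.80). Ferritin light chain Ftl1 and catalase Cat changed by 1.35 and 1.16. Libraries of the groups were apart for all 4 genes, which the choice by adjusted p favours. The list shares Sqstm1 and Slc7a11 with the lists above. Nfe2l2, which encodes NRF2, stood at 117 and 123 CPM and was not called, and the NRF2 target Nqo1, at 14.5 and 16.8 CPM, was not called either. The 3 members that fell, named like these after their values were seen, were Prdx1 (-0.61), Sod2 (-0.58) and Tkt (-0.23).

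Interferon response genes rose, with 24 of 32 higher and none lower (median 0.72). Irf7, the factor that amplifies interferon transcription, stood at 21.2, 28.2 and 23.3 CPM against 67.2, 63.9 and 66.4 CPM (1.45 ± 0.10 SE, adjusted p = 4.67e-09). Stat2, a subunit of the factor that interferon activates, stood at 37, 40.0 and 38 CPM against 71.8, 77.3 and 74.3 CPM (0.96). The antiviral genes Oasl2, Oas3 and Xaf1 changed by 1.42, 0.94 and 1.48. The groups did not overlap for these 5 genes, which their choice by adjusted p favours. Among members not called, named after their values were seen, Usp18, Gbp3, Parp14 and Irf1 changed by -0.37, -0.48, -0.15 and -0.08. The others not called, Oas1a, Oas1c, Mx1 and Zbp1, changed by 0.18, 0.39, 0.93 and 1.89. Of 14 class I antigen presentation genes 8 rose and 2 fell (71.4% called, median 0.63). B2m, the light chain of class I molecules, stood at 416, 407 and 383 CPM against 607, 634 and 631 CPM (0.63), the peptide transporter Tap1 changed by 0.63 and Nlrc5, which drives class I transcription, by 0.95. H2-T23 and H2-T22 changed by 1.30 and 1.66, but H2 genes share reads with one another and their split is uncertain. The members that fell, named after their values were seen, were the proteasome subunit Psmb10 (-0.35) and the peptidase Erap1 (-0.33).

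**Figure D3:**
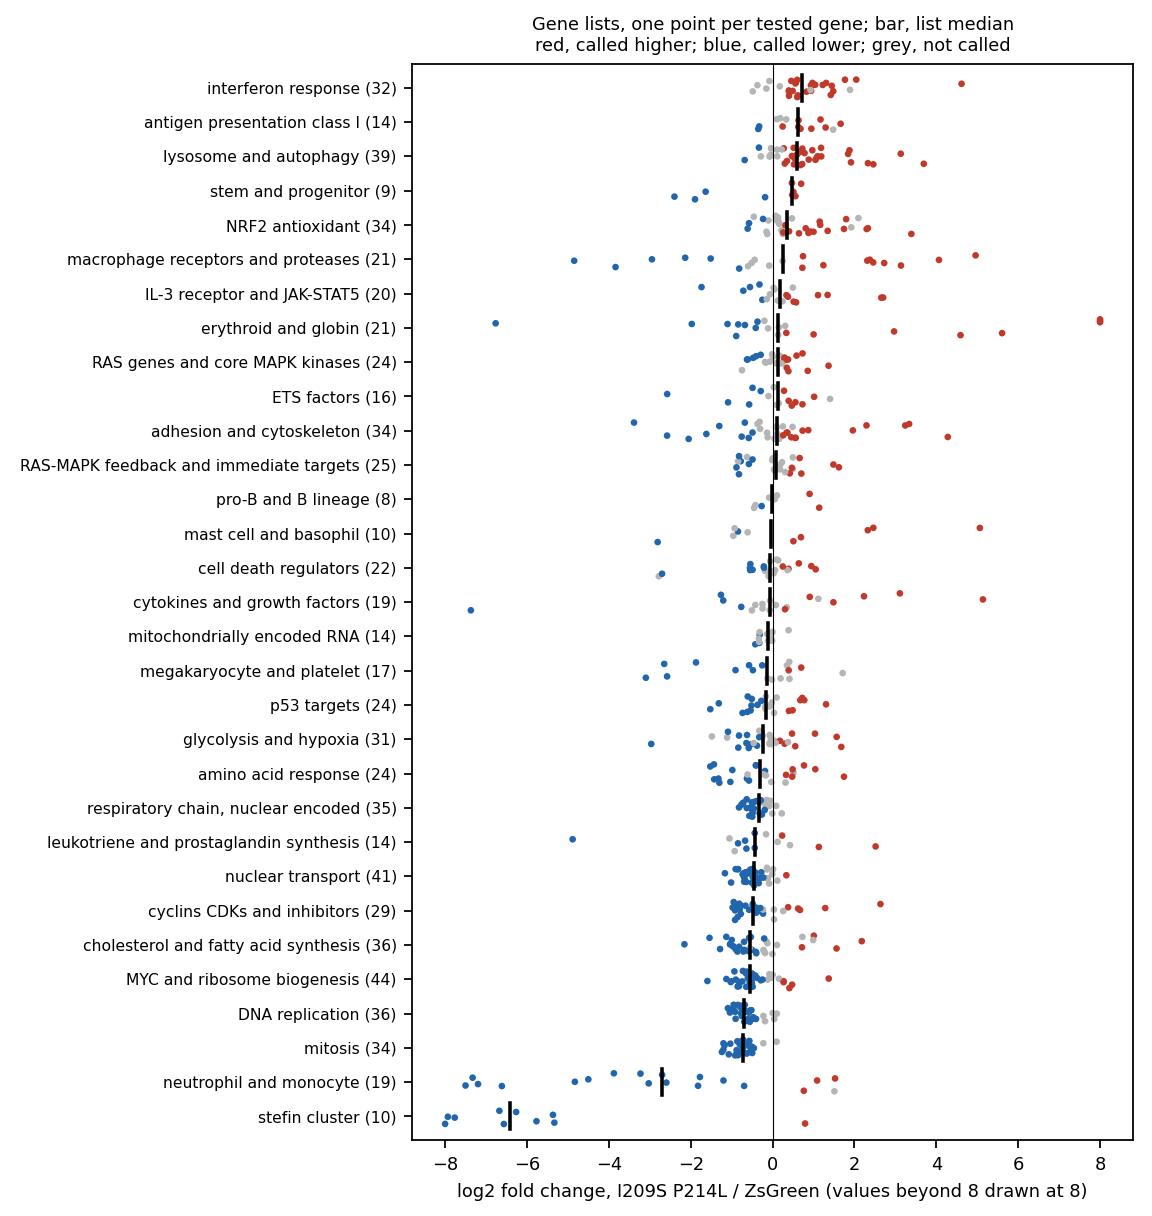
Log2 fold change of I209S P214L over ZsGreen (horizontal axis, values beyond 8 in size drawn at 8) for each tested member of the 31 gene lists with at least 5 tested members, with the number tested beside each name. Red points are called higher, blue lower and grey not called, and the black bar is the list median, which runs from -6.41 for the stefin cluster to 0.72 for the interferon response.

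Both beta chains of the IL-3 receptor rose. Csf2rb2, the beta chain specific to the IL-3 receptor, stood at 370, 390 and 394 CPM with ZsGreen and 2532, 2469 and 2511 CPM with I209S P214L, 6.51-fold higher (2.70 ± 0.06 SE, adjusted p = 1.57e-15). Csf2rb, the chain shared with the GM-CSF and IL-5 receptors, stood at 336, 343 and 349 CPM against 2315, 2052 and 2108 CPM (2.65 ± 0.07). The libraries of each group were within a narrow range, but these copies share reads and their split is uncertain. Il3ra, the alpha chain, stood at 64.7 and 76.3 CPM and was not called. Il3 had no count. Of 20 IL-3 receptor and JAK-STAT5 genes 8 rose and 5 fell (median 0.18, 65.0% called). Of all tested genes 41.5% were called, with 51.6% from 10 to 100 CPM and 65.9% at higher levels. Of the kinases Tyk2 changed by 0.58 and, named after their values were seen, Jak3 by 0.51, Jak2 by 0.34 and Jak1 by -0.25. Downstream genes of the list went both ways. Pim1 stood at 144, 151 and 153 CPM against 86.2, 99.2 and 87.5 CPM (-0.71). Id1 stood at 56.5, 59.3 and 55.8 CPM against 17.7, 17.4 and 16.4 CPM (-1.74). Cish, which rose from 4.66 to 11.7 CPM, and Socs3, from 5.34 to 11.5 CPM, encode feedback inhibitors and were named after their values were seen.

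Of 24 RAS genes and core kinases 10 rose and 5 fell (62.5% called, median 0.13), and of 25 feedback and immediate targets of the pathway 6 rose and 6 fell (48.0%, median 0.08). Of all tested genes 41.5% were called, and 51.6% of those from 10 to 100 CPM, so these shares are near the background. Ksr1, a scaffold of the kinase cascade, changed by 0.73. The exchange factor Sos2 changed by 0.59, and the RAS-GTPase activator Rasal3 and Rras2 by -0.61 and -0.62. Among the targets, Dusp4, a phosphatase of ERK, stood at 106, 90.9 and 88.5 CPM against 57.8, 54.1 and 54.4 CPM (-0.78). Lif, a cytokine, stood at 5.31, 7.66 and 5.95 CPM against 16.3, 19.2 and 17.4 CPM (1.49), and Phlda1 changed by 1.62. Dusp6, another ERK phosphatase, and Fos, named after their values were seen, stood at 208.7 and 217 CPM and at 85.6 and 90.7 CPM and were not called.

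ETS genes themselves changed in part, with 6 of 16 higher and 5 lower (median 0.12, 68.8% called). Of all tested genes 41.5% were called, with 51.6% from 10 to 100 CPM and 65.9% at higher levels. Erg stood at 13.5, 13.8 and 14.1 CPM with ZsGreen and 2.69, 1.67 and 2.52 CPM with I209S P214L (-2.57 ± 0.21 SE, adjusted p = 2.29e-08). Ets2 stood at 106, 81.9 and 94.5 CPM against 49.1, 43.7 and 39.8 CPM (-1.09), and Elf1 changed by -0.57. Spi1, the myeloid factor PU.1, stood at 154, 155 and 136 CPM against 256, 243 and 239 CPM (0.73), and the repressor Elk3 at 41.8, 41.4 and 40.3 CPM against 86.7, 77.9 and 84.9 CPM (1.02). Each of these genes had separate groups, which the choice by adjusted p favours.

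Regulators of cell death had 5 of 22 higher and 7 lower (54.5% called, median -0.06), beside 20.8% higher and 20.7% lower of all tested genes, a share near the background. Bcl2l11, the death-promoting protein BIM, stood at 39.6, 46.8 and 47.5 CPM against 95, 89.3 and 93.5 CPM (1.05 ± 0.09 SE, adjusted p = 5.23e-08), and the initiator Casp9 changed by 0.95. Bcl2l1, the protective BCL-XL, stood at 76.1, 82.1 and 73.1 CPM against 58.5, 48.5 and 50.6 CPM (-0.55), and the death-promoting Bid changed by -0.54. The groups were apart for each, which the choice by adjusted p favours. Bcl2 and Mcl1, named after their values were seen, stood at 314 and 328 CPM and at 236 and 240 CPM and were not called. Of 24 p53 targets 6 rose and 10 fell (median -0.17, 66.7% called). Of all tested genes 41.5% were called, with 51.6% from 10 to 100 CPM and 65.9% at higher levels. The p53 antagonist Mdm2 rose from 113, 123 and 117 CPM to 201, 203 and 200 CPM (0.78) and Gadd45a by 1.31 on the log2 scale, while Sesn1 and Zmat3 changed by -0.73 and -0.52. This count fell from 16 to 10 without ZsGreen 1, without I209S P214L 1, without I209S P214L 3 and without the first libraries.

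Genes of neutrophils and of the stefin cluster, a group of cysteine protease inhibitors, were the lists with the lowest medians. All 10 tested stefin genes were called, 9 lower and 1 higher (median -6.41, or -6.02 with genes at 0 set to their bound). Cstdc4 stood at 49.1, 46.8 and 39.3 CPM with ZsGreen and 0.430, 0.906 and 0.123 CPM with I209S P214L, 92.6-fold lower. Stfa2 had 1 count with I209S P214L, a ratio of 332 (59.2 to 13165). The groups did not come near each other, though stefin genes share reads and their split is uncertain. The member that rose, named after its values were seen, was Cstb, a stefin expressed in most tissues (35.5 to 61.6 CPM). Of 19 neutrophil and monocyte genes 15 fell and 3 rose (94.7% called, median -2.70). Ms4a3, a marker of granulocyte and monocyte progenitors, stood at 213.5, 197 and 195 CPM against 37.4, 28.5 and 34.1 CPM (-2.59 ± 0.09 SE, adjusted p = 8.28e-13). The granule genes Ngp and Mmp9 changed by -3.23 and -2.70, and S100a9 stood at 6.44, 7.53 and 5.83 CPM against 0.0537, 0.209 and 0.430 CPM. The members that rose, named after their values were seen, were Cebpe, a factor of late granulocyte maturation (70.9 to 204 CPM), the chemokine receptor Ccr2 (123 to 208 CPM) and Fcnb (2.96 to 6.31 CPM).

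Macrophage receptors and proteases were split, with 10 of 21 higher and 6 lower (median 0.25, 76.2% called beside 41.5% of all tested genes). Adgre1, the F4/80 antigen, stood at 21.6, 18 and 20.1 CPM against 130, 90.7 and 107 CPM (2.46 ± 0.14 SE, adjusted p = 3.41e-10), and Lilrb4a and its copy Lilrb4b changed by 3.14 and 2.38, with an uncertain split. Cd300lf, an inhibitory receptor of myeloid cells, stood at 37.0, 34.7 and 29.6 CPM against 4.30, 4.74 and 4.11 CPM (-2.95). The groups were apart for all 4, which the choice by adjusted p favours. Of 10 mast cell genes 5 rose and 2 fell (median -0.05, 70.0% called). The chymases Mcpt4 and Cma1 rose, Cma1 from 3.27, 2.00 and 3.55 CPM to 16.5, 13 and 15 CPM (2.33), and the granule proteoglycan Srgn changed by 0.69. The amine transporter Slc18a2 stood at 429, 489 and 499 CPM against 265, 253 and 270 CPM (-0.85), and Ms4a2, named after its values were seen, changed by -2.81.

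Of 17 megakaryocyte and platelet genes 8 fell and 2 rose (median -0.12, 58.8% called). Of all tested genes 41.5% were called, with 51.6% from 10 to 100 CPM and 65.9% at higher levels. Pf4, platelet factor 4, stood at 29.8, 20.6 and 16.4 CPM with ZsGreen and 2.31, 2.23 and 3.25 CPM with I209S P214L (-3.10 ± 0.24 SE, adjusted p = 1.08e-08). Selp, the platelet selectin, stood at 20.3, 19.6 and 16.8 CPM against 3.17, 3.63 and 2.70 CPM (-2.58), and Gp9 changed by -1.87. Itga2b, the integrin of platelets, stood at 900, 978 and 954 CPM against 692, 595 and 614 CPM (-0.57). Each gene had separate groups, which the choice by adjusted p favours. The 2 that rose, named after their values were seen, were Fli1 (0.39) and the thrombin receptor F2rl2 (0.70). The first is also on the ETS list.

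Erythroid genes had 8 of 21 higher and 8 lower (median 0.14, 76.2% called beside 41.5% of all tested genes). The 5 tested globins rose. Hba-a1 stood at 30.5, 39.8 and 35.1 CPM against 204, 340 and 281 CPM (2.97 ± 0.25 SE, adjusted p = 3.14e-08), and Hbb-bs at 0, 0.133 and 0.782 CPM against 10.8, 19.5 and 15.3 CPM. Hbb-bt rose by 4.59 on the log2 scale, and Hba-x and Hbb-y came up from no count. Adult globins have near-identical copies, so their split is uncertain. The other 3 that rose, named after their values were seen, were Slc4a1 (from no count), the spectrin Sptb (2.66 to 5.33 CPM) and the factor Tal1 (516 to 651 CPM). Among the 8 that fell, Hemgn stood at 79.6, 69.3 and 69.0 CPM against 17.8, 20.1 and 17.6 CPM (-1.97), and the transferrin receptor Tfrc at 320, 337 and 332 CPM against 179, 179 and 177 CPM (-0.89). Klf1 and Gata1, which drive erythroid genes and were named after their values were seen, changed by -1.10 and -0.37.

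Of 9 tested stem and progenitor genes 5 rose and 4 fell (100% called beside 41.5% of all tested genes, median 0.47). Lmo2, a partner of TAL1, stood at 69.2, 81.7 and 83.0 CPM against 15.2, 13.7 and 15.5 CPM (-2.40 ± 0.10 SE, adjusted p = 6.75e-12). Ikzf1, the lymphoid factor Ikaros, and the homeobox gene Hhex changed by -1.89 and -1.64. Myb stood at 275, 279 and 293 CPM against 438, 465 and 470 CPM (0.70), and Runx1 changed by 0.56. Among T and NK genes, of which 4 of 24 were tested, Gzmb rose from 6.44, 7.53 and 6.62 CPM to 32.4, 28.0 and 32.7 CPM (2.18), while Cd3g, Cd8a, Trbc1, Gzma and Prf1 had no count. Il2rb (0.55) and Cd247 (2.98) were called too, but not without ZsGreen 3 (edgeR adjusted p = 0.0539 and 0.0564). Il2rb also lost its call without ZsGreen 1 (0.0791) and without the first libraries (0.130). Cd247 lost its call with the 2 groups alone (0.0547), without ZsGreen 2 (0.0573) and without I209S P214L 2 (0.0619).

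Markers of other cell types thus moved with these results, and their part in the changes of other genes was not tested. The summed level of the neutrophil and monocyte list was 559.7 to 588.7 CPM with ZsGreen and 483 to 551 CPM with I209S P214L, with Csf1r at 0.280 and 0.799 CPM and no count of Ly6g, Csf3r or Cebpa. That of the macrophage list was 316 to 355 CPM against 655 to 691 CPM, with no count of Mertk, Marco or C1qa. That of the mast cell list was 2584 to 2713 CPM against 3275 to 3788 CPM, with Kit at 2 and 3 counts and no count of Mcpt8. The megakaryocyte list summed to 3285 to 3370 CPM against 2376 to 2468 CPM, with no count of Gp1bb. The erythroid list summed to 2155 to 2171 CPM against 2042 to 2148 CPM, with no count of Car1 or Car2. Of the fibroblast list 2 of 14 genes were tested, with Col1a2 and Pdgfra at 0.

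Among secreted factors, 6 of 19 tested cytokine and growth factor genes rose and 4 fell (median -0.06, 52.6% called). Besides Angptl2, the chemokine Ccl9 rose from 38.6, 37.1 and 36.7 CPM to 167, 184 and 178 CPM (2.23), and Il34, a ligand of the CSF1 receptor, from 1.75, 3.33 and 4.21 CPM to 28.1, 21.2 and 30.5 CPM (3.11). Besides Fgf23, the falls were of Tgfb1 (457 to 269 CPM), Tnf (11.3 to 4.72 CPM) and Ccl4 (6.74 to 2.93 CPM), named after their values were seen. Adhesion and cytoskeleton genes had 13 of 34 higher and 9 lower (median 0.11, 64.7% called). Of all tested genes 41.5% were called. The integrin Itgal stood at 66.0, 57.5 and 63.3 CPM against 6.28, 4.67 and 6.81 CPM (-3.39), and Itgb7 rose from 29.2, 21.1 and 24.8 CPM to 138, 113 and 118 CPM (2.29). So both losses and gains of adhesion molecules were large. In the leukotriene list 6 of 14 genes fell and 3 rose (median -0.44, 64.3% called). The activating protein Alox5ap changed by -0.67 and the receptor Ltb4r1 by 1.13. The 9 calls of this list became 5 without ZsGreen 3 or I209S P214L 2.

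Of long noncoding RNAs, Neat1, the scaffold of paraspeckles, stood at 85.6, 89.1 and 111 CPM with ZsGreen and 437, 468 and 465 CPM with I209S P214L (2.26 ± 0.12 SE, adjusted p = 5.64e-11). The host RNA of miR-22, Mir22hg, stood at 5.42, 6.46 and 8.54 CPM against 30.4, 25 and 26.6 CPM (2.01), and that of miR-142, Mir142hg, changed by 1.18. Mir17hg, the host of the miR-17 cluster and a known target of MYC, stood at 19.9, 25.3 and 30.4 CPM against 13.8, 13.6 and 15.1 CPM (-0.83). D5Ertd605e and Platr27 changed by -2.12 and -1.31. The groups of these RNAs were apart because this was a condition of their choice.

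**Figure D4:**
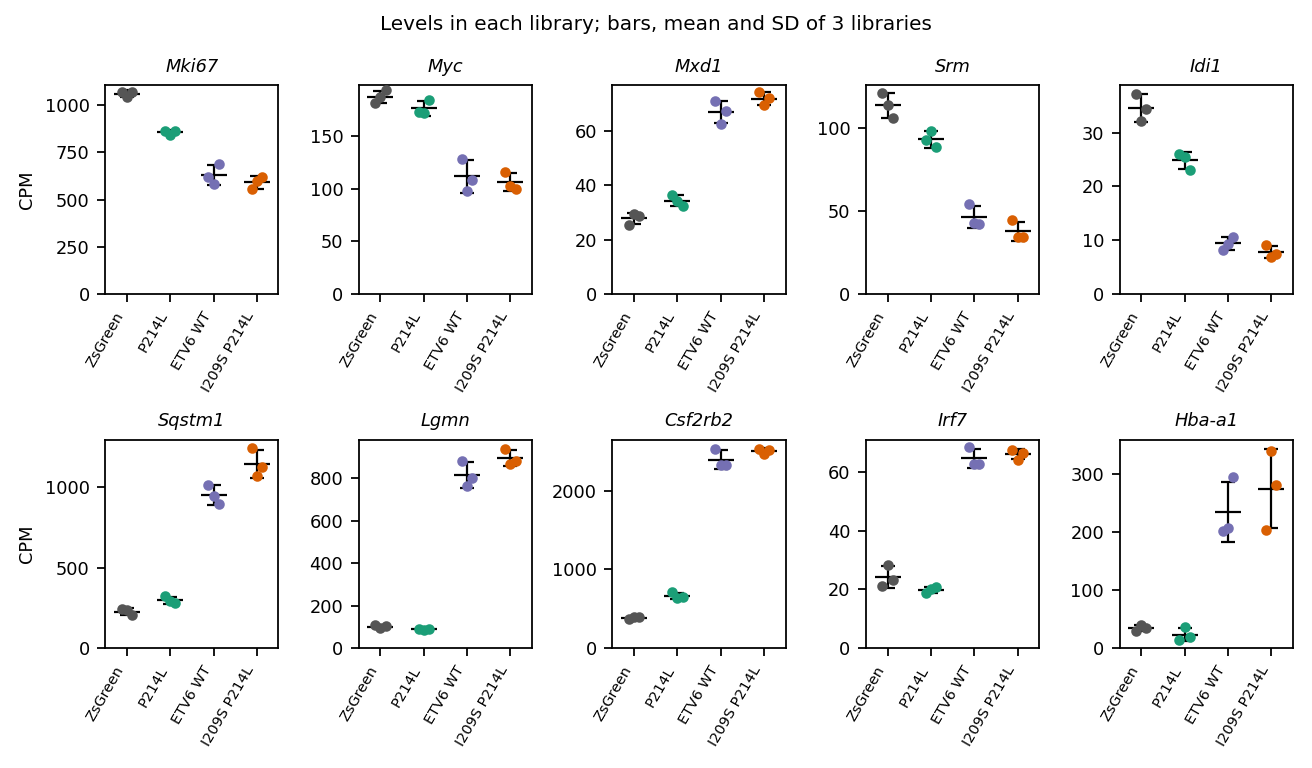
Level in CPM of 10 genes in each library of the 4 groups, with points for the libraries and bars for the mean and SD of 3 libraries, each panel starting at 0. The I209S P214L libraries lie away from the ZsGreen libraries in every panel and overlap the range of the ETV6 WT libraries in every panel but that of Sqstm1.

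I209S P214L differed little from ETV6 WT in a direct test. Of the 14794 genes 5 were called (0.0338%), 2 higher and 3 lower with I209S P214L (0.0135% and 0.0203%), and 512 had an unadjusted p under 0.05. DESeq2 called 23 and limma-voom 3. Wnt10b was the 1 call of at least 2-fold (0.00676%, in the higher direction), and the libraries of the groups were apart for 1233 genes (8.33%). Over 10106 genes of at least 5 CPM the median size of the log2 difference was 0.07 and 95% of genes lay within 0.29, beside 0.33 and 1.20 for I209S P214L against ZsGreen. Differences of over 2-fold were found for 15 of them (0.148%), against 813 (8.04%) with ZsGreen as the reference. The comparisons of I209S P214L and of ETV6 WT with ZsGreen share their control libraries. I209S P214L 1 and ETV6 WT 1 had the lowest 18S shares of the 12 libraries, at 1.35% and 1.58%, and their part in this comparison was not tested.

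Of the 5 genes, 4 are described here, and each was called against ZsGreen too. Angptl2 stood at 110, 109 and 102 CPM with ETV6 WT, below the 165 to 187 CPM of I209S P214L (0.72 ± 0.10 SE, edgeR adjusted p = 0.0141, and up to 0.158 over the alternatives). Wnt10b stood at 6.04, 7.01 and 5.85 CPM against 18 to 20.3 CPM (1.61 ± 0.25, adjusted p = 0.0216, up to 0.258). Ms4a3 stood at 51.0, 51.1 and 53.1 CPM against 28.5 to 37.4 CPM (-0.63 ± 0.09, adjusted p = 0.0141, up to 0.400). In these 3 genes the I209S P214L libraries lay farther from ZsGreen than the ETV6 WT libraries did. F630028O10Rik, a noncoding RNA outside the naming rule and chosen after its values were seen, stood at 126 ± 14.5 CPM with ETV6 WT and 90.1 ± 2.86 CPM with I209S P214L (SD, n = 3, -0.48, edgeR adjusted p = 0.0450, up to 0.554), and at 107 ± 7.27 CPM with ZsGreen it lay between them.

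Leaving out any 1 of ETV6 WT 2, ETV6 WT 3, I209S P214L 2 or I209S P214L 3 left 1 call, and none of Angptl2, Wnt10b, Ms4a3 and F630028O10Rik was called there. With any 1 library of either group left out, Wnt10b was not called, with adjusted p-values of 0.0771 to 0.258. Angptl2 was called in 11 of the 15 alternatives, Ms4a3 and Wnt10b in 9 and F630028O10Rik in 4. The sign of the difference was kept in each.

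**Figure D5:**
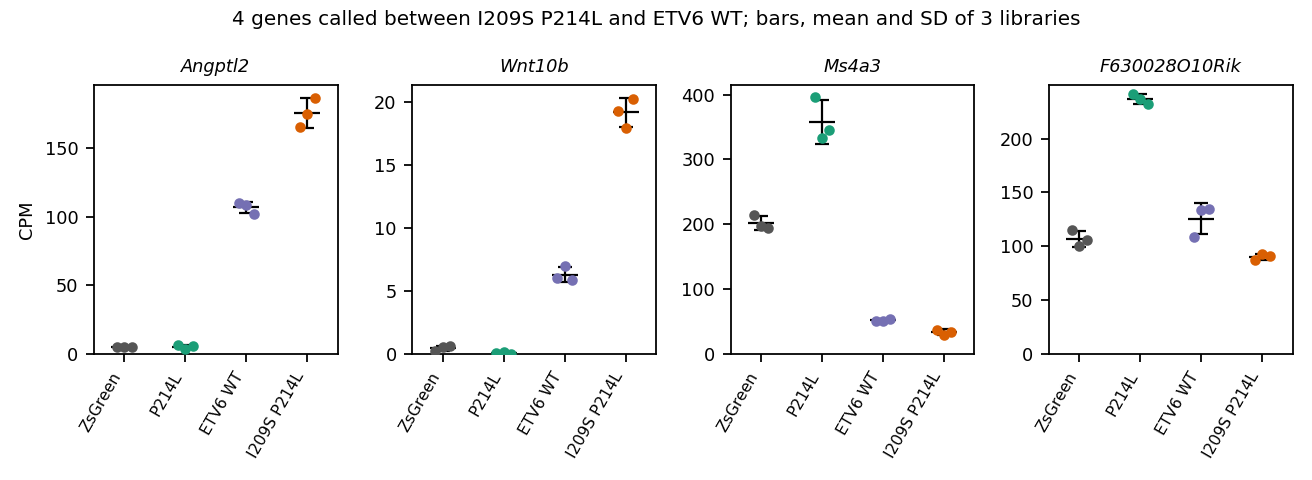
Level in CPM of 4 genes called between I209S P214L and ETV6 WT in each library of the 4 groups, with points for the libraries and bars for the mean and SD of 3 libraries, each panel starting at 0. In Angptl2, Wnt10b and Ms4a3 the I209S P214L libraries lie beyond those of ETV6 WT as seen from ZsGreen, and in F630028O10Rik the P214L libraries lie above all others.

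Against ETV6 P214L, which lacks I209S, the same test called 4884 genes (33.0%), 2349 higher (15.9%) and 2535 lower (17.1%) with I209S P214L, including 966 (6.53%) of at least 2-fold, of which 493 were higher (3.33%) and 473 lower (3.2%). No overlap of libraries was found for 7126 genes (48.2%). Angptl2 stood at 6.65, 3.66 and 5.36 CPM with P214L, against 165 to 187 CPM with I209S P214L (5.08 ± 0.13 SE, edgeR adjusted p = 2.93e-14). Ngef and Hba-x had no count with P214L, as with ZsGreen. Lists of division genes were lower than with P214L as well, with 32 of 34 mitosis genes and 28 of 36 DNA replication genes called lower and none higher (medians -0.54 and -0.47). Interferon response genes were higher, with 22 of 32 called and none lower (median 0.80). Lysosome and autophagy genes had 23 of 39 higher and 3 lower (0.48).

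Myeloid genes are given beside their values against ZsGreen. For the stefin list the median was -7.99 against P214L and -6.41 against ZsGreen, and for the neutrophil and monocyte list -3.42 and -2.70. Cstdc4 averaged 140 CPM with P214L and 45.1 CPM with ZsGreen, S100a8 22.5 and 4.08 CPM, and Ms4a3 358 and 202 CPM, against 0.486, 0.0179 and 33.3 CPM with I209S P214L. These comparisons share the I209S P214L libraries, so their medians are given side by side and were not tested against each other. Some genes called against ZsGreen were not called against P214L, and 3 of them, chosen after their values were seen, are given here. Slc7a11 averaged 181 CPM with P214L and 172 CPM with the double mutant (-0.07, adjusted p = 0.597), Pla2g4a at 134 and 132 CPM (-0.02, adjusted p = 0.868) and Myb at 421 and 458 CPM (0.12, adjusted p = 0.165), each with the edgeR adjusted p of the direct test.

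Among themselves the 3 I209S P214L libraries were close. Of 10066 genes of at least 5 CPM, 189 ranged over 2-fold or more among them and 210 among the ZsGreen libraries. I209S P214L 1 differed 2-fold from the mean of the others for 111 genes, I209S P214L 2 for 49 and I209S P214L 3 for 48. In the globin Hba-a1 the range was from 204 to 340 CPM, all above the ZsGreen range of 30.5 to 39.8 CPM.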

How the data were processed

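RNA selected by poly-A tail was sequenced from 12 libraries, per the labels' protocols, which describe both a stranded and an unstranded kit, so strand is unknown and overlapping antisense genes cannot be separated. Reads were aligned to mm39 with HISAT2 2.0.5 and counted per gene with featureCounts 1.5.0-p3, per the submitters' processing notes. The deposited counts are whole reads per gene and were the only values tested here. The deposited FPKM values, scaled by the authors to gene length and depth, were not tested. The authors' normalized group means in the same table were not used. The deposited log2 fold changes and p-values are the authors' own, and only the number of calls was taken from them. The table listed 56748 genes, and 30009 of them were at 0 throughout.

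Genes passing edgeR's filterByExpr (14794) were fitted over all 12 libraries with 1 mean per group, TMM scaling and the quasi-likelihood test of edgeR 4.0.16 in R 4.3.3, with Benjamini-Hochberg adjustment over all tested genes and a threshold of 0.05. Fitted log2 fold changes use edgeR's default prior count. A prior count of 2 was used only for the log2 levels behind the principal components and the correlations between libraries. Alternatives used DESeq2 1.42.0, limma 3.58.1, other scalings and filters, the 2 groups alone, a replicate block and fits without a library. The procedure was tested on simulated data. Replicate counts differed by more than sampling noise.

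Named genes were the 15 largest rises and falls among called protein-coding genes of at least 5 CPM whose groups do not overlap, up to 5 members per list by adjusted p, up to 8 genes per direction against ETV6 WT and 5 against P214L by the same conditions, up to 8 genes per direction with at most 3 counts in a group and at least 1 CPM in the other, 5 long noncoding RNAs per direction, and Etv6, Nras, Il3, Xpo1, Csf2rb and Csf2rb2. Other genes were chosen after their values were seen. The groups compared and the 33 lists (976 genes) were chosen with earlier results of these data known. Floors are 3 counts summed over a group, and intervals are exact at 95%. Some genes are not reported here.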

Additional observations from a re-analysis of the deposited data

How the results depend on the processing

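The count of genes called between I209S P214L and ZsGreen ran from 5407 (the 2 groups alone) to 6422 (DESeq2) beside 6139, and from 5396 to 5811 when 1 library was left out. None of these alternatives called any of the 6139 genes with the opposite sign. With library totals as the only scaling 54.4% of calls were higher, beside 50.2%. Against P214L the count ran from 4854 to 5526 beside 4884, and from 3943 to 4556 with a library left out. Against ETV6 WT the 5 calls became 23 with DESeq2, 38 with no filter, 8 without ZsGreen 1, ETV6 WT 1 and I209S P214L 1, 3 with limma-voom, 3 with the 2 groups alone and 1 to 4 with a library left out, and the cause was not tested. The labels do not tie libraries of the same number together. Deviations of same-numbered libraries correlated at 0.0963, 0.00747 and 0.0270 between I209S P214L and ZsGreen, at 0.528, 0.0786 and 0.254 between I209S P214L and ETV6 WT and at -0.0476, -0.0433 and 0.0182 between I209S P214L and P214L. I209S P214L 2 correlated best with ETV6 WT 3 (0.161), so pairing was not taken as given. With the replicate block, 6357, 4 and 5102 genes were called against ZsGreen, ETV6 WT and P214L. Of 200 named genes under these alternatives, 13 values lost a call, 5 gained one and 0 reversed, in Cd79b, Il2rb, Cd247, mt-Nd2, mt-Rnr1 and Etv6. Of 495 list counts 487 stayed within 1.5 times. The exceptions were the p53 and leukotriene counts given above, T and NK genes (1 call without ZsGreen 3, beside 3) and mitochondrially encoded RNA (5 with no filter, beside 3). Depth limits genes under 1 CPM, of which few were called.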
